A study of Rattus norvegicus with 9 samples.

Results

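The Slc25 genes encode the mitochondrial carrier family, and 48 of the 35843 rows of the expression table from rat left ventricle carried a symbol made of Slc25a and a number. Carriers are small membrane proteins, most of them in the mitochondrial inner membrane, that exchange 1 metabolite for another between the cytosol and the matrix. In heart muscle the ADP/ATP carrier exports the ATP made by oxidative phosphorylation, the phosphate carrier brings in the phosphate that ATP synthase needs, the carnitine-acylcarnitine carrier brings in fatty acids, and the aspartate-glutamate carriers move reducing equivalents from cytosolic NADH. A few members are found elsewhere, such as Slc25a17 in peroxisomes and Slc25a46 in the mitochondrial outer membrane. Uncoupling proteins and the Mtch genes belong to the same family under other symbols and were described only beside it.

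The samples came from hearts of adult male Sprague-Dawley rats, 3 biological replicates in each of 3 groups, taken at day 28. Rats of group Sham were operated on with no artery tied and received saline by gavage each day. Rats of group MI had a myocardial infarction from a tie around the left anterior descending artery and the same saline, and rats of group MI + DAPA (1st d), called the DAPA group here, had the ligation and 1 mg/kg dapagliflozin (DAPA), an inhibitor of the kidney's sodium-glucose cotransporter SGLT2, by daily gavage starting on day 1. The sample labels name heart and the series' design text left ventricle, and the study's methods say that molecular work mainly used the infarct border or, in the Sham rats, the matching part of the wall. Its account of the RNA sequencing instead names infarct myocardium in the MI and DAPA groups and normal myocardium in group Sham. Each sample title lists a pair of tube-like names, and what the pair stands for is not given in the sources used here. Samples are called rats below, though whether each holds tissue of a single animal is not given.

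The deposited values were FPKM, which are divided by gene length and by a factor for each library, so that levels can be compared between genes on that scale. That factor did not follow the total of the reads recovered below. FPKM summed over all genes ran from 484156 in MI 2 to 1.746e+06 in Sham 3. Whole reads recovered from the steps of the values came to between 13597239 and 17210909 per rat, and genes of the mitochondrial genome took 61.1% to 66.9% of them in the Sham rats, 7.07% to 19.1% in the MI rats and 17.5% to 32.0% in the DAPA group. Reads of the carriers together numbered 22329 to 27285 per rat in the Sham rats, 26168 to 49793 in the MI rats and 42131 to 69953 in the DAPA group, and the same FPKM of a carrier rested on fewer reads in the Sham rats than in any other rat. Of 17 cardiomyocyte marker genes outside mitochondria, all were detected, and their summed FPKM ranged from 7798 to 11401 in the Sham rats, from 2519 to 12399 in the MI rats and from 9526 to 19907 in the DAPA group. The rat MI 2 stood apart, with the lowest cardiomyocyte sum of all rats (2519) and the highest sum of 7 lymphocyte markers (2992 FPKM, against 6.92 to 528 in the other 8 rats). In the MI rats Jchain alone averaged 1136 FPKM, of a mean lymphocyte sum of 1184 FPKM. In MI vs. Sham, endothelial markers were negative in 5 of 5 with 3 called lower (Tie1, Cdh5 and Kdr), smooth muscle markers in 4 of 5 and proliferating cell markers in 6 of 6 with none called, and of the adipocyte markers Fabp4 was called lower (-3.57) and Cfd higher (2.07). Over all genes 10.3% were called lower there and 12.1% higher. Adipoq, Plin1 and Cidec were at 0 throughout group Sham. Of 4 brown adipocyte markers only Cidea was tested, and it was not called in MI vs. Sham or DAPA vs. MI. Cidea was called higher in DAPA vs. Sham (1.15), at 45.3 ± 17.6 against 19.2 ± 3.00 FPKM, as were 9.54% of all genes. Fewer cardiomyocytes and less carrier mRNA per cardiomyocyte cannot be told apart in whole tissue.

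Carrier mRNA was dominated by 3 genes. Slc25a4, which encodes the heart's main ADP/ATP carrier, Slc25a3, the phosphate carrier, and Slc25a5, a second ADP/ATP carrier, were the only members with a mean over 100 FPKM across the 9 rats. Another 13 members averaged 10 to 100 FPKM, 19 averaged 1 to 10 FPKM, 10 lay above 0 and under 1 FPKM, and 3 were listed at 0 in every rat (Slc25a31, Slc25a41 and Slc25a54). The 3 members at 0 had no read in libraries of at least 13597239 reads, which allows a share of up to 2.21e-05% of a library, counting error alone considered. A filter of at least 1 FPKM in 3 of the rats compared left 36 members for testing in each comparison, 37 in any of them and 11 in none, so that the counts below describe the expressed carriers and not all 48.

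The summed FPKM of the 48 carriers was 1484, 1816 and 2025 in the 3 rats of group Sham, 1397, 960.4 and 1785 in the MI rats, and 2580, 3096 and 1606 in the DAPA group. MI 2 was the lowest rat and DAPA 3 the lowest of its group, and the groups overlapped. As a share of the FPKM of all genes the order differed, at 0.115% ± 0.00848 (SD, n = 3) in the Sham rats, 0.261% ± 0.0574 in the MI rats and 0.349% ± 0.0396 in the DAPA group, the mitochondrial genome being part of that total. As a share of the FPKM outside the mitochondrial genome the carriers were at 0.454% ± 0.0630, 0.347% ± 0.111 and 0.571% ± 0.133 in the same order of groups.

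What differed between groups within the family was its composition. Slc25a4 made up 54.7%, 51.6% and 58.5% of carrier FPKM in the rats of group Sham, 42.1%, 29.4% and 41.7% in the MI rats and 52.3%, 56.0% and 45.6% in the DAPA group. All 3 rats of group MI lay below the other 6. Slc25a3 held 19.6% ± 1.41 in the Sham rats, 25.7% ± 1.46 in the MI rats and 24.1% ± 0.442 in the DAPA group, and Slc25a5 held 3.72% ± 0.771, 8.78% ± 1.70 and 5.67% ± 0.900. These shares do not depend on the scaling between libraries.

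**Figure D1:**
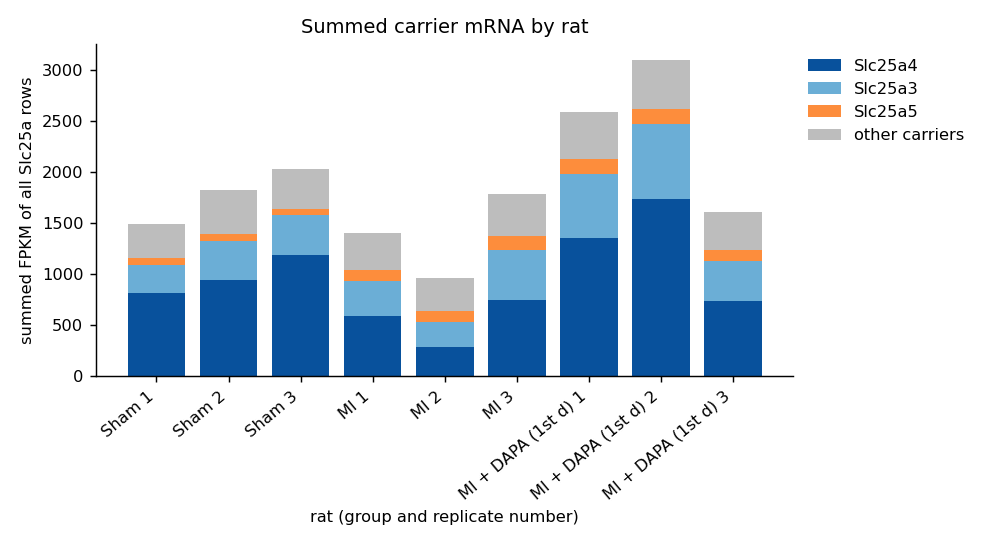
Summed FPKM of the 48 carriers (y axis) in each of the 9 rats (x axis, group and replicate number), with Slc25a4, Slc25a3, Slc25a5 and all other carriers stacked. The dark blue part, Slc25a4, takes 29.4% to 42.1% of the bar in the MI rats and 45.6% to 58.5% in the other rats.

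Promoters of 40 of the 48 carriers were matched by symbol in RefSeq's rat assembly GRCr8. Those of Slc25a4, Slc25a5 and both aspartate-glutamate carriers are shown because these pairs carried the largest differences in balance in MI vs. Sham, described below. Each is the 250 bases before the annotated start, read 5′ to 3′ on the gene's strand, with any CCGGAAG or its complement CTTCCGG, the core bound by ETS family factors, in capitals.
Slc25a4, chr16:52805271-52805520, plus strand: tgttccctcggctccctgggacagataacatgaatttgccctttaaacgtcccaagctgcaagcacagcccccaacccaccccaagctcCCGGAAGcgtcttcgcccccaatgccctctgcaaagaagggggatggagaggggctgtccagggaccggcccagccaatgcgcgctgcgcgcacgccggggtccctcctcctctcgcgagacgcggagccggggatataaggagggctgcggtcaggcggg
Slc25a5, chrX:120897366-120897615, plus strand: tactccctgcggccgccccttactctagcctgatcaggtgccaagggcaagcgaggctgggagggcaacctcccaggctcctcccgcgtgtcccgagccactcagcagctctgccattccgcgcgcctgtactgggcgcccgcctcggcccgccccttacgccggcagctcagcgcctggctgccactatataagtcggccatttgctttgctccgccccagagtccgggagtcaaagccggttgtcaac
Slc25a12, chr3:76599537-76599786, minus strand: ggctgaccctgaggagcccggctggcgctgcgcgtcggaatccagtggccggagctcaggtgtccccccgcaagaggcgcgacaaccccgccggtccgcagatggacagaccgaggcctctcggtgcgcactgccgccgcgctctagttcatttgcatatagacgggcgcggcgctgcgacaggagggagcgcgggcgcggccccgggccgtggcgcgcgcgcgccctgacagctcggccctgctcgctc
Slc25a13, chr4:35328361-35328610, minus strand: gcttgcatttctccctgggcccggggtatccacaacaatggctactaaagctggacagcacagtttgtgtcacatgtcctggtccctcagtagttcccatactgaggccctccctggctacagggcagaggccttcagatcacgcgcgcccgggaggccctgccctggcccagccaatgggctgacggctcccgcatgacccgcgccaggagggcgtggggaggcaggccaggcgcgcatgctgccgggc
Among these 4, the capitals occur only in Slc25a4. Searched on both strands, the 7 letters were found in 6 of the 40 carrier promoters (15.0%: Slc25a3, Slc25a4, Slc25a14, Slc25a20, Slc25a38 and Slc25a54) and in 7.27% of the 33469 promoters of the table. The nuclear receptor half-site AAGGTCA, also on both strands, was in 1 carrier promoter (Slc25a34, 2.50%) and in 3.99% of all, and TATAAA on the gene's strand was in 1 (Slc25a38, 2.50%) against 8.06%. G and C made up a median of 57.6% of the carrier promoters against 51.2% of all, with a median of 13 CpG dinucleotides against 5. A match or its absence says only which letters are in this window.

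The comparison of group MI with group Sham asks which carrier mRNAs differ 4 weeks after infarction. With infarction, Slc25a13, the second aspartate-glutamate carrier, rose, and Slc25a42, a coenzyme A carrier, fell. With adjusted p-values and no fold threshold, 5 carriers were higher in the MI rats (Slc25a5, Slc25a10, Slc25a13, Slc25a30 and Slc25a44) and 4 were lower, among them Slc25a28, Slc25a33 and Slc25a38, which carry iron, pyrimidine nucleotides and glycine. A gene is called here when its unadjusted p is under 0.05 and its log2 fold change is beyond 1 in either direction, both taken from limma on log2(FPKM + 1). The same thresholds were set in the original analysis. So called were 2 of 36 carriers, or 5.56%, against 22.4% of the 13485 genes tested, 12.1% higher and 10.3% lower. By an adjusted p under 0.05 they were 9 of 36, or 25.0%, against 39.0% of all genes, 19.5% in each direction. At an unadjusted p under 0.05 with no fold threshold 5 carriers were higher and 6 lower, against 49.0% of all genes, 24.5% higher and 24.4% lower. The 3 rats of each group did not overlap in 15 carriers, 7 higher and 8 lower in the MI rats, or 41.7%, against 54.6% of all genes, 27.1% higher and 27.5% lower. Each of these shares was below that of all genes. The median log2 fold change of the carriers was -0.06, and that of all genes -0.01.

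The comparison of the DAPA group with group MI asks what treatment changed after infarction. Slc25a4 was the only carrier called, higher in the DAPA group, and none was called lower. These were 1 of 36 carriers, or 2.78%, against 2.06% of the 13251 genes tested, 0.951% higher and 1.11% lower, so the count stood near the background. By limma's adjusted p under 0.05 the count was 0 for the carriers and 0.0% of all genes. At an unadjusted p under 0.05 without a fold threshold 3 carriers were higher (Slc25a4, Slc25a11 and Slc25a12) and 2 lower (Slc25a10 and Slc25a44), or 13.9% against 8.49% of all genes, 4.59% higher and 3.9% lower. The groups did not overlap in 4 carriers, Slc25a12 higher and Slc25a10, Slc25a30 and Slc25a44 lower, or 11.1% against 13.8%, 6.63% higher and 7.16% lower. The median log2 fold change was 0.06 for the carriers, of which 22 of 36 were positive, and -0.02 for all genes. Each pair of the 3 comparisons shares a group of rats, so their fold changes are not independent of each other.

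The comparison of the DAPA group with group Sham asks what differed from the uninjured heart under treatment. Slc25a5 and Slc25a13 were higher and Slc25a14, a carrier of the uncoupling protein branch, was lower in the DAPA group. These 3 of 36 carriers, or 8.33%, stood against 17.7% of the 13359 genes tested, 9.54% higher and 8.16% lower. By an adjusted p under 0.05 there were 6, or 16.7% (Slc25a5, Slc25a11 and Slc25a13 higher, Slc25a14, Slc25a28 and Slc25a33 lower), against 28.6% of all genes, 14.5% higher and 14.1% lower. At an unadjusted p under 0.05 with no fold threshold 7 were higher and 4 lower, against 41.4%, 21.1% higher and 20.4% lower. The groups did not overlap in 14 carriers (9 higher and 5 lower), or 38.9% against 46.5%, 23.2% higher and 23.3% lower. The median log2 fold change was 0.13 for the carriers and 0.01 for all genes.

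Directions are those of the deposited scaling, which is not one to equal total reads. Factors from the median over genes of each rat's FPKM, relative to the geometric mean of all rats, were 1.0003 to 1.0134. The deposited values were thus already close to such a median-ratio scale. Rescaling each rat to the same total over all genes, the mitochondrial genome included, moved the median log2 fold change of all genes to 1.301 in MI vs. Sham, to -0.34 in DAPA vs. MI and to 1.00 in DAPA vs. Sham. Relative to those medians, the sign was kept by 32 of 36 carriers in MI vs. Sham, by 36 of 36 in DAPA vs. MI and by 32 of 36 in DAPA vs. Sham. Those that did not keep it included Slc25a3, Slc25a16, Slc25a17 and Slc25a26 in MI vs. Sham and Slc25a16, Slc25a35 and Slc25a37 in DAPA vs. Sham. None of the carriers that did not keep it passed a criterion in the comparison named. Subtracting the median gene largely takes back a factor applied per rat. The agreement was therefore nearly fixed in advance and is no test of the directions.

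**Figure D2:**
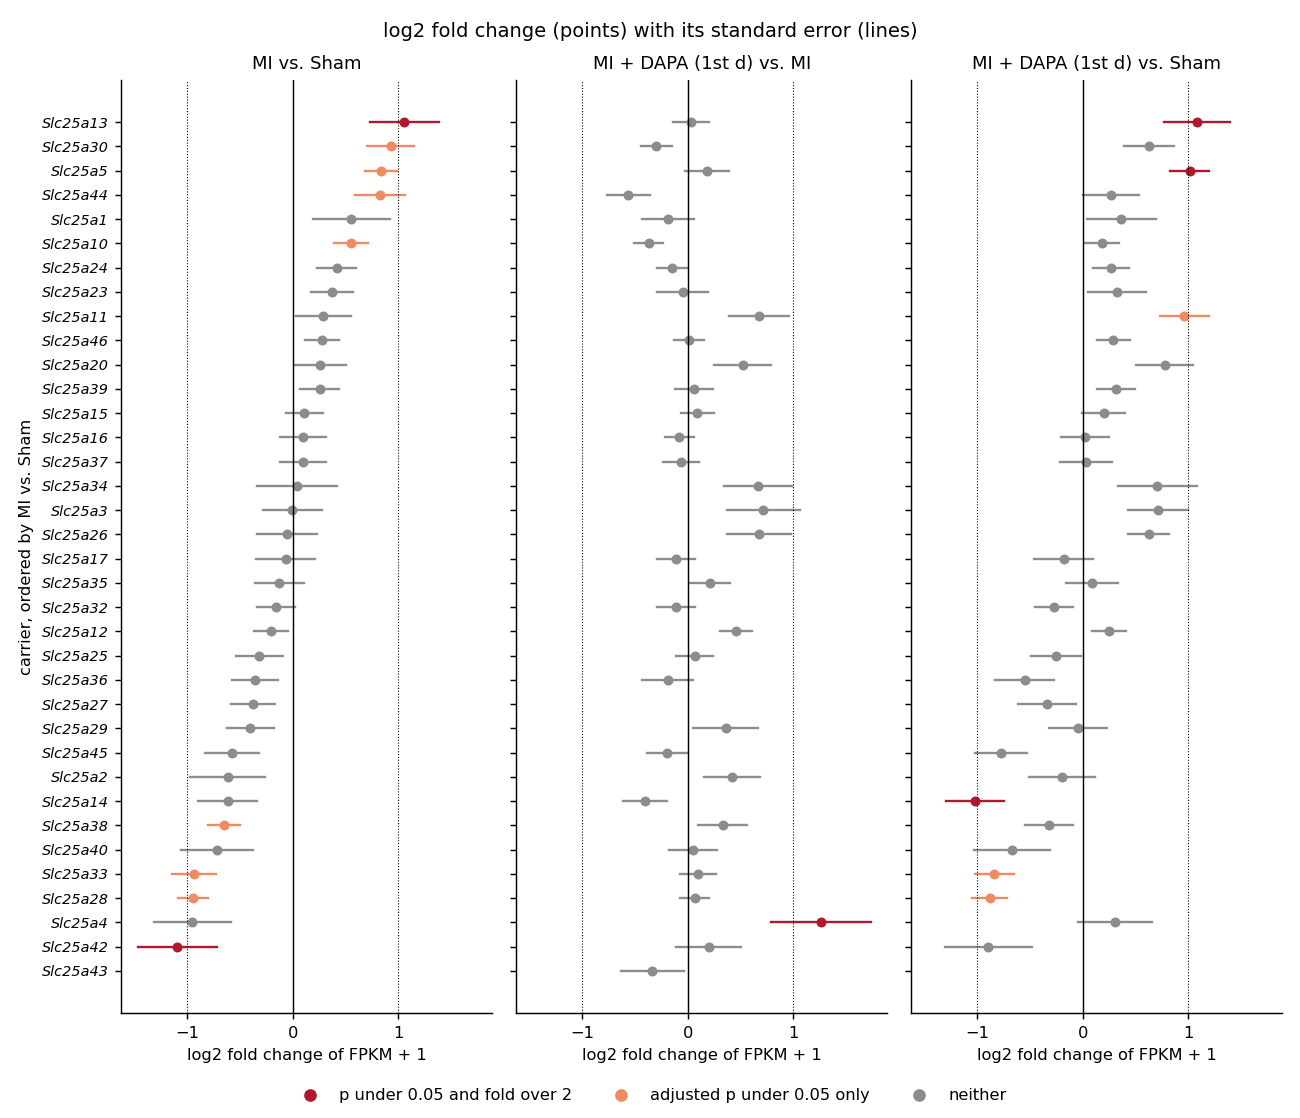
log2 fold change of FPKM + 1 (x axis) for 36 of the 37 carriers tested in any comparison (y axis, ordered by MI vs. Sham), with lines of 1 standard error and 3 rats per group, in the deposited scaling. Dotted lines mark a log2 fold change of 1 in each direction, and only Slc25a4 passes the calling rule in the middle panel, at 1.26, while rescaling over all genes moves the median gene by 1.301, -0.34 and 1.00 in the 3 panels.

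Among the ADP/ATP carriers, Slc25a4 was measured at 812, 937 and 1184 FPKM in the Sham rats, at 588, 282 and 745 FPKM in the MI rats and at 1349, 1734 and 732 FPKM in the DAPA group. All rats of group MI lay below group Sham, MI 2 lowest, and the rat DAPA 3 lay below MI 3, so that the DAPA group and group MI overlapped. The log2 fold change in MI vs. Sham was -0.95 (SE 0.37, adjusted p = 0.0780). Its unadjusted limma p was 0.0351, so it missed the calling rule on the fold alone and also missed the adjusted p. In DAPA vs. MI it was 1.26 (SE 0.47, adjusted p = 0.558), called at the unadjusted p. That call was lost, with the unadjusted p above 0.05, without MI 1 (1.38), MI 2 (0.85), DAPA 1 (1.18) or DAPA 2 (0.99), and it was kept without MI 3 (1.55) or DAPA 3 (1.62). MI vs. Sham was called without Sham 1 (-1.08), MI 1 (-1.07) or MI 3 (-1.24), and without MI 2 it was -0.54. In DAPA vs. Sham the difference was 0.31 (SE 0.35, adjusted p = 0.543).

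Within each group, the summed cardiomyocyte markers ranked the rats in the same order as Slc25a4 did. The sums were 7798, 9983 and 11401 FPKM in the Sham rats and 6675, 2519 and 12399 FPKM in the MI rats. In the DAPA group they were 17816, 19907 and 9526 FPKM. That order did not hold between groups. The MI rat with the sum of 12399 FPKM lay above every Sham rat in that sum. Its Slc25a4, at 745 FPKM, lay below that of every Sham rat. All 17 markers had positive fold changes in DAPA vs. MI, with a median of 1.23. Of them 2 were called higher (Myl2 and Tnni3, limma adjusted p = 0.558 each), against 0.951% of all genes. In MI vs. Sham 12 of 17 were negative, with a median of -0.31. There 4 were called lower (Myh6 at -2.43, Tnni3 at -2.32, Ldb3 at -1.77 and Mybpc3 at -1.62) and 1 higher (Myh7 at 1.68). Of all genes 10.3% were called lower and 12.1% higher. The sum therefore mixes genes that went in opposite directions with infarction. None of them was at 0 in any group, and their part in the carrier differences was not tested.

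Slc25a5, the ADP/ATP carrier of many dividing and non-muscle cells, stood at 67.9, 64.0 and 62.3 FPKM in the Sham rats, 111, 103 and 136 FPKM in the MI rats and 152, 145 and 103 FPKM in the DAPA group. Every rat with an infarct was above every rat of group Sham. It rose in MI vs. Sham by 0.83 (SE 0.15, adjusted p = 0.00602) and was 1.01 higher in DAPA vs. Sham (SE 0.19, adjusted p = 0.00837). In DAPA vs. MI the difference was 0.18 (SE 0.21, adjusted p = 0.755), with overlapping rats. The fold of 1.01 stood at the threshold and fell under it without Sham 3 (0.99), DAPA 1 (0.91) or DAPA 2 (0.94).

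In the same libraries, markers of other cell types went in both directions with infarction. All 10 fibroblast and matrix markers were positive in MI vs. Sham (9 called), their sum being 460 to 749.9 FPKM in the Sham rats, 3839 to 7609 in the MI rats and 2398 to 4127 in the DAPA group. All 8 macrophage markers were called higher, with sums of 123 to 435, 1706 to 3106 and 949 to 1698 FPKM. The share of all genes called higher in MI vs. Sham was 12.1%. Endothelial markers were lower, with a median of -1.14, and proliferating cell markers had a median of -0.35 with none called. The part of these cells in the rise of Slc25a5 was not tested.

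The remaining ADP/ATP carriers were near or at the floor. Slc25a31, known from testis, was listed at 0 in all 9 rats, and Slc25a6 ranged from 0 to 0.974 FPKM, or 0 to 10 reads, and was not tested. ADP/ATP carriers share long stretches of sequence, and how reads matching several of them were assigned is not given in the sources used here, so part of a value could belong to another member.

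Within each rat, the FPKM ratio of Slc25a4 to Slc25a5 was 12.0, 14.7 and 19.0 in the Sham rats, 5.29, 2.74 and 5.47 in the MI rats and 8.86, 12.0 and 7.09 in the DAPA group. The 3 rats of group MI had the lowest ratios of all, and the DAPA group touched the lower end of group Sham. On log2(FPKM + 1) the balance was 3.88 ± 0.33 (SD, n = 3) in the Sham rats, 2.09 ± 0.56 in the MI rats and 3.18 ± 0.38 in the DAPA group. The differences were -1.79 in MI vs. Sham, 1.08 in DAPA vs. MI (each with a two-sided exact permutation p of 0.1, adjusted 0.18) and -0.70 in DAPA vs. Sham (exact p = 0.2, adjusted 0.327). With 3 rats against 3 an exact p cannot be smaller than 0.1, and it was adjusted over the 18 tests of 6 pairs in 3 comparisons.

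**Figure D3:**
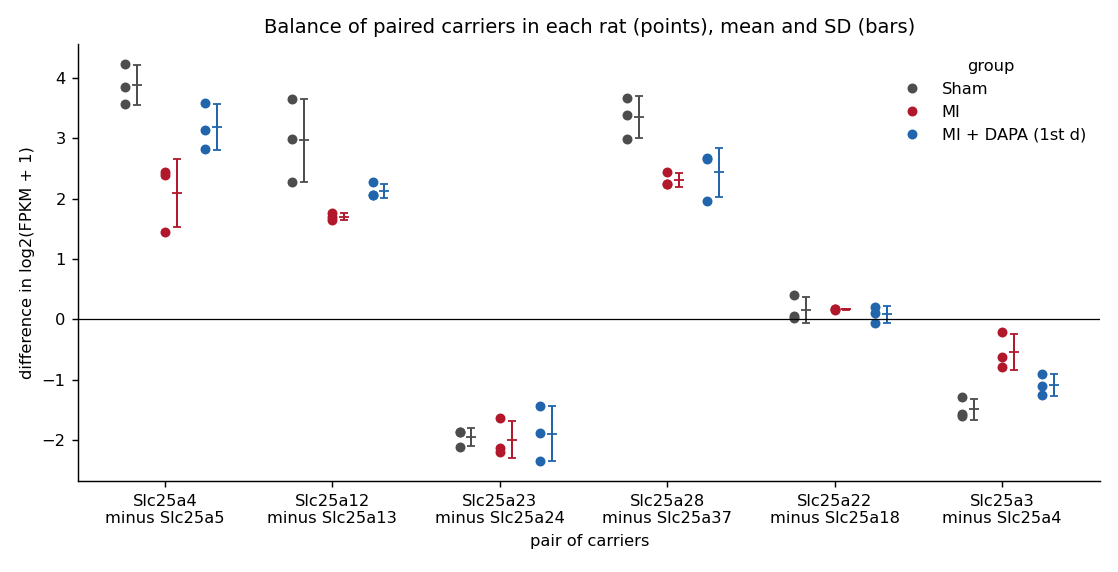
Difference in log2(FPKM + 1) between the members of 6 carrier pairs (x axis) in each rat (points), with the mean and SD of the 3 rats of each group (bars to the right of the points). The Slc25a4 and Slc25a5 balance averages 3.88 in the Sham rats, 2.09 in the MI rats and 3.18 in the DAPA group, and the Slc25a23 and Slc25a24 balance overlaps in all groups.

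The phosphate carrier Slc25a3 was at 273, 384 and 389 FPKM in the Sham rats, 340, 245 and 486 FPKM in the MI rats and 627, 731 and 392 FPKM in the DAPA group. Group MI spread to both sides of group Sham, with a log2 fold change of 0.00 after rounding (SE 0.28, adjusted p = 0.992). The DAPA group lay above group Sham in every rat, by 0.71 (SE 0.28, adjusted p = 0.0981), and against group MI the value was 0.72 (SE 0.34, adjusted p = 0.558). Neither difference was called or had an adjusted p under 0.05. In DAPA vs. Sham the unadjusted limma p was 0.0371, which counts among those under 0.05 without a fold threshold.

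Set against Slc25a4 in the same rat, Slc25a3 reached 0.337, 0.410 and 0.328 of its FPKM in the Sham rats, 0.578, 0.868 and 0.652 in the MI rats and 0.464, 0.421 and 0.536 in the DAPA group. The 3 groups did not overlap in this ratio. The differences in balance were 0.95 in MI vs. Sham, -0.55 in DAPA vs. MI and 0.40 in DAPA vs. Sham, each with an exact permutation p of 0.1 (adjusted 0.18).

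ATP synthase, which uses the phosphate and ADP that these carriers bring in, had 13 tested subunit genes. In MI vs. Sham 6 of them were called lower and 11 had negative values, with a median of -0.84, and in DAPA vs. MI all 13 were positive with a median of 0.94 and 3 called higher (Atp5po, Atp5me and Atp5mc3, adjusted p = 0.558 each). Of all genes 10.3% were called lower in the first comparison and 0.951% higher in the second. Atp5me fell from 689 ± 159 to 173 ± 85.1 FPKM after infarction (-2.10, adjusted p = 0.00806) and Atp5pd from 785 ± 188 to 258 ± 96.0 FPKM (-1.65, adjusted p = 0.00767). With treatment Atp5pf had a fold change of 0.93 and Atp5f1e of 0.96 over group MI (adjusted p = 0.558 each), both short of the fold threshold. Slc25a3 was at 349 ± 65.5 FPKM in the Sham rats and 357 ± 121 FPKM in the MI rats.

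On the outer membrane and in the phosphocreatine shuttle, 7 of the 8 listed genes were tested, 1 called higher and 1 lower in MI vs. Sham. The shares of all genes were 12.1% higher and 10.3% lower there, and 0.951% higher in DAPA vs. MI. Ckmt2, the mitochondrial creatine kinase that works beside the ADP/ATP carrier, fell from 533 ± 128 to 103 ± 60.4 FPKM in the MI rats (-2.59, adjusted p = 0.0103) and was called higher in DAPA vs. MI at 248 ± 89.5 FPKM (1.45, adjusted p = 0.558). Hk2, a hexokinase that docks on mitochondria, rose from 1.53 ± 0.788 to 7.67 ± 0.950 FPKM in the MI rats (1.82, adjusted p = 0.00264). Vdac3, a channel of the outer membrane, had a value of 0.57 in DAPA vs. MI (adjusted p = 0.558), which was under the fold threshold.

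The calcium-regulated ATP-Mg/phosphate carriers set the total pool of adenine nucleotides in the matrix. Slc25a23 was at 1.19, 1.87 and 1.35 FPKM in the Sham rats, 1.93, 2.20 and 2.43 FPKM in the MI rats and 1.29, 3.09 and 2.09 FPKM in the DAPA group. Slc25a24 was at 6.93, 9.43 and 9.20 FPKM in the Sham rats, 11.8, 13.6 and 9.67 FPKM in the MI rats and 10.6, 10.1 and 10.4 FPKM in the DAPA group. Both lay above group Sham in every rat of group MI, with log2 fold changes of 0.37 (adjusted p = 0.175) and 0.41 (adjusted p = 0.119) that passed no criterion. Their balance differed by -0.04, 0.10 and 0.06 in the 3 comparisons, with exact permutation p-values of 0.8, 0.8 and 1. Slc25a25 was between 4.43 and 8.23 FPKM in all rats with no call, and Slc25a41 was listed at 0.

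In the malate-aspartate shuttle, aspartate leaves the matrix through Slc25a12 (aralar) or Slc25a13 (citrin) and 2-oxoglutarate through Slc25a11. Slc25a12, the form of muscle and brain, was at 13.3, 16.4 and 15.4 FPKM in the Sham rats, 12.9, 11.1 and 14.8 FPKM in the MI rats and 17.8, 20.3 and 16.2 FPKM in the DAPA group. The DAPA group lay above group MI in every rat, by 0.46 (SE 0.16, adjusted p = 0.558), under the fold threshold, while MI vs. Sham was -0.21 (adjusted p = 0.342) and DAPA vs. Sham 0.25 (adjusted p = 0.283).

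Slc25a13, the form of liver and many other tissues, was at 1.97, 1.21 and 0.313 FPKM in the Sham rats, 3.31, 2.57 and 4.02 FPKM in the MI rats and 3.51, 3.43 and 3.12 FPKM in the DAPA group. Group Sham lay below both other groups in every rat. It rose in MI vs. Sham by 1.06 (SE 0.33, adjusted p = 0.0391) and was higher in DAPA vs. Sham by 1.09 (SE 0.31, adjusted p = 0.0375), while DAPA vs. MI was 0.03 (SE 0.17, adjusted p = 0.956). The values in the Sham rats rested on 30, 18 and 4 reads, and without Sham 3 the fold changes were 0.73 and 0.76, under the threshold. Without MI 3 the first was 0.94.

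The balance of Slc25a12 over Slc25a13 was 2.96 ± 0.69 (SD, n = 3) in the Sham rats, 1.70 ± 0.05 in the MI rats and 2.13 ± 0.12 in the DAPA group on log2(FPKM + 1). The FPKM ratio was 6.76, 13.6 and 49.2 in the Sham rats, 3.90, 4.32 and 3.68 in the MI rats and 5.07, 5.92 and 5.18 in the DAPA group, without overlap between any of the 3 groups. The differences of -1.26, 0.43 and -0.84 each had an exact permutation p of 0.1 (adjusted 0.18).

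Slc25a11, the 2-oxoglutarate-malate carrier and the fourth most abundant member, was at 45.0, 53.3 and 67.6 FPKM in the Sham rats, 63.8, 49.7 and 93.8 FPKM in the MI rats and 117, 129 and 81.4 FPKM in the DAPA group. The DAPA group lay above group Sham in every rat, by 0.96 (SE 0.23, adjusted p = 0.0201), and by 1.11 without Sham 3 or 1.16 without DAPA 3, past the fold threshold. In DAPA vs. MI the value was 0.67 (SE 0.28, adjusted p = 0.558), with DAPA 3 below MI 3.

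The 4 enzymes of that shuttle were all positive in DAPA vs. MI, with a median of 0.79 and none called. Got2, the mitochondrial aspartate aminotransferase, was at 54.0 ± 8.22, 82.7 ± 26.6 and 124 ± 20.2 FPKM in groups Sham, MI and DAPA, with a log2 fold change of 0.61 in DAPA vs. MI (adjusted p = 0.558) and of 0.57 in MI vs. Sham (adjusted p = 0.0959). Got1, its cytosolic counterpart, was at 49.8 ± 18.2, 42.2 ± 14.1 and 68.1 ± 17.4 FPKM, with 0.69 in DAPA vs. MI (adjusted p = 0.558) and -0.22 in MI vs. Sham (adjusted p = 0.628). Got2 (1.18, adjusted p = 0.00535) and Mdh1 (1.04, adjusted p = 0.0381) were called higher in DAPA vs. Sham, as were 9.54% of all genes.

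Slc25a20, the carnitine-acylcarnitine carrier that lets long-chain fatty acids reach the matrix, was at 16.2, 27.4 and 19.5 FPKM in the Sham rats, 25.7, 19.1 and 30.8 FPKM in the MI rats and 38.6, 46.9 and 25.4 FPKM in the DAPA group. All 3 groups overlapped with their neighbours. The log2 fold changes were 0.26 in MI vs. Sham (SE 0.25, adjusted p = 0.440), 0.52 in DAPA vs. MI (SE 0.27, adjusted p = 0.559) and 0.78 in DAPA vs. Sham (SE 0.27, adjusted p = 0.0694). None was called, though without DAPA 3 the last was 1.02 and passed the calling rule.

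Around it, 6 carnitine shuttle genes were tested, and 1 was called in MI vs. Sham and none in DAPA vs. MI. Over all genes the shares called were 22.4% and 2.06%. Slc22a5, the plasma membrane carnitine transporter, fell from 5.34 ± 0.438 to 1.42 ± 0.165 FPKM in the MI rats (-1.39, adjusted p = 0.00175). Crat, carnitine acetyltransferase, was at 23.6 ± 4.86, 31.7 ± 4.84 and 41.4 ± 6.36 FPKM in groups Sham, MI and DAPA, with 0.41 in MI vs. Sham (adjusted p = 0.133) and 0.38 in DAPA vs. MI (adjusted p = 0.558). Cpt1b, the muscle carnitine palmitoyltransferase, was at 27.6 ± 12.7, 14.6 ± 8.39 and 28.2 ± 9.31 FPKM, and its 1.03 in DAPA vs. MI (adjusted p = 0.558) was not called.

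**Figure D4:**
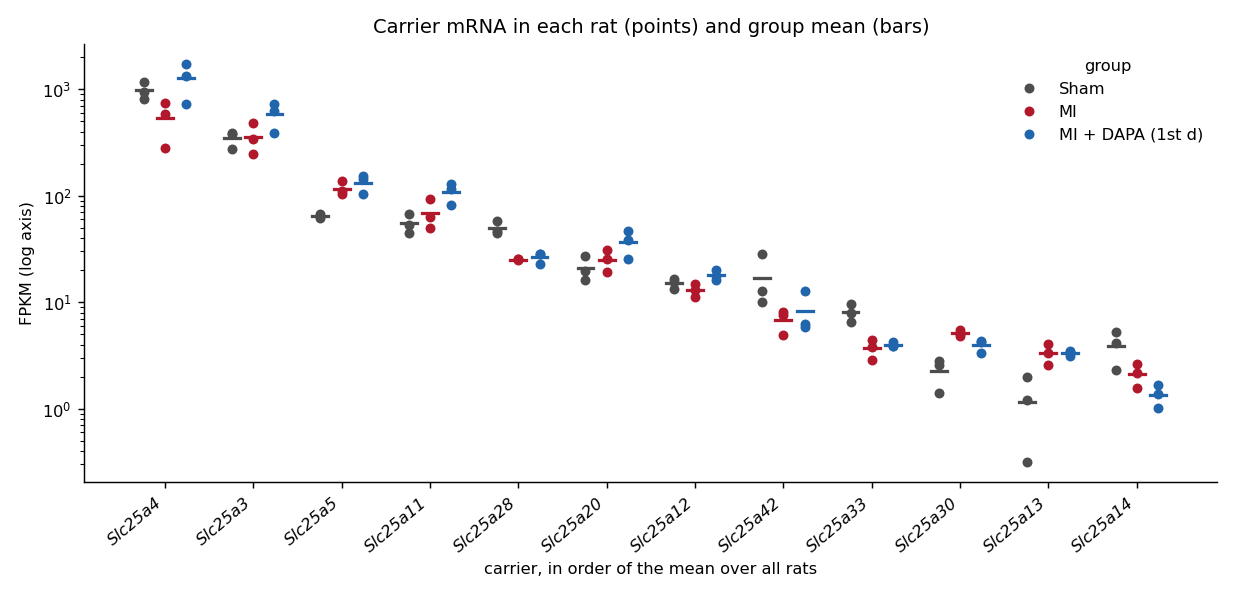
FPKM (y axis, log scale) of 12 carriers (x axis, in order of their mean over all rats) in each rat (points) with the mean of the 3 rats of each group (horizontal bars). Slc25a28 reads 45.2 to 57.6 FPKM in the Sham rats and 22.9 to 28.4 FPKM in all rats with an infarct, and Slc25a4 spreads from 282 to 745 FPKM in the MI rats and from 732 to 1734 FPKM in the DAPA group.

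Of the di- and tricarboxylate carriers, Slc25a10, which exchanges malate and succinate for phosphate, was higher in the MI rats. It was at 6.53, 7.22 and 5.69 FPKM in the Sham rats, 9.29, 9.19 and 11.4 FPKM in the MI rats and 7.24, 7.25 and 7.79 FPKM in the DAPA group, with no overlap between group MI and either other group. The rise of 0.55 in MI vs. Sham (SE 0.16) had an adjusted p of 0.0328 (limma), and the DAPA group differed from group MI by -0.37 (SE 0.13, adjusted p = 0.558). Slc25a1, the citrate carrier, ranged from 4.54 to 18.5 FPKM with overlapping groups, its extremes being Sham 2 and MI 2. Slc25a21, an oxoadipate carrier, stayed near or under 1 FPKM and was not tested, though its 3 DAPA rats at 0.601, 1.03 and 0.417 FPKM lay above group MI at 0.171 to 0.246 FPKM.

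Amino acid carriers moved in different directions. Slc25a38, a glycine carrier of haem synthesis, fell from 12.9, 14.3 and 13.2 FPKM in the Sham rats to 7.31, 7.88 and 9.55 FPKM in the MI rats (-0.65, SE 0.15, adjusted p = 0.0150). In the DAPA group it was at 10.2, 14.8 and 7.75 FPKM, overlapping both. Slc25a44, a carrier of branched-chain amino acids, rose from 0.870, 1.60 and 1.93 FPKM to 3.27, 3.99 and 2.75 FPKM (0.83, SE 0.24, adjusted p = 0.0298). The DAPA group lay below group MI in every rat at 1.69, 1.55 and 2.58 FPKM, a difference of -0.57 (SE 0.20, adjusted p = 0.558).

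The glutamate carriers Slc25a22 and Slc25a18 were barely read, at 0.0911 to 0.328 FPKM (4 to 10 reads) and 0 to 0.298 FPKM (0 to 6 reads), and their balance is not informative at this depth. The ornithine carriers Slc25a2 and Slc25a15 and the basic amino acid carrier Slc25a29 lay between 0.426 and 4.91 FPKM with no call in any comparison.

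Of the 10 carriers of cofactors and pyrimidine nucleotides 8 were tested, and in MI vs. Sham 7 of the 8 had negative values, with a median of -0.26 against -0.01 for all genes in the deposited scaling, and after rescaling over all genes Slc25a16, Slc25a17 and Slc25a26 changed side of the median gene. Slc25a42, which brings coenzyme A into the matrix, fell from 10.01, 28.4 and 12.8 FPKM in the Sham rats to 8.04, 4.95 and 7.51 FPKM in the MI rats. The log2 fold change was -1.09 (SE 0.37, adjusted p = 0.0536). Sham 2 was far above its group, and without it the value was -0.68, under the fold threshold, as was the value without MI 2 (-0.91). The DAPA group was at 6.31, 12.7 and 5.87 FPKM, which overlapped group Sham, and DAPA vs. Sham was -0.90 (adjusted p = 0.140), called without Sham 1 (-1.19) or DAPA 2 (-1.22).

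Slc25a33, a pyrimidine nucleotide carrier, was at 6.49, 9.65 and 7.96 FPKM in the Sham rats, 3.82, 2.87 and 4.45 FPKM in the MI rats and 3.86, 4.28 and 3.88 FPKM in the DAPA group. Both infarct groups lay below group Sham in every rat, by -0.94 in MI vs. Sham (SE 0.21, adjusted p = 0.0124) and -0.84 in DAPA vs. Sham (SE 0.19, adjusted p = 0.0158). MI vs. Sham passed the fold threshold without Sham 1 (-1.07) or MI 3 (-1.05). Its relative Slc25a36 was at 14.7 ± 3.82, 11.1 ± 1.51 and 9.82 ± 3.06 FPKM with overlapping groups and no call.

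Slc25a26, which imports S-adenosylmethionine, was at 14.6 ± 2.07, 14.7 ± 5.57 and 23.2 ± 4.66 FPKM, and its DAPA rats lay above group Sham by 0.62 (adjusted p = 0.0505) without a call. Slc25a16, Slc25a17 and Slc25a32 had no call, with fold changes between -0.27 and 0.10 in the 3 comparisons. The NAD carriers Slc25a51 and Slc25a52 were at most 1.31 FPKM in every rat and were not tested.

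Among the iron and glutathione carriers, the mitoferrin Slc25a28 fell with infarction. It was at 46.5, 57.6 and 45.2 FPKM in the Sham rats, 24.9, 25.4 and 25.3 FPKM in the MI rats and 22.9, 28.1 and 28.4 FPKM in the DAPA group, so that all 6 infarct rats lay below all 3 of group Sham with little spread. The log2 fold changes were -0.95 in MI vs. Sham (SE 0.14, adjusted p = 0.00329) and -0.88 in DAPA vs. Sham (SE 0.17, adjusted p = 0.00916), close to the fold threshold without passing it, except in MI vs. Sham without Sham 3 (-1.01). In DAPA vs. MI the value was 0.06 (SE 0.13, adjusted p = 0.873).

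Slc25a37, the mitoferrin of red cell precursors, was at 2.73, 4.64 and 4.83 FPKM in the Sham rats, 4.47, 4.602 and 3.84 FPKM in the MI rats and 5.16, 3.56 and 3.65 FPKM in the DAPA group. It was not called anywhere. The balance of Slc25a28 over Slc25a37 was 3.35 ± 0.34 (SD, n = 3), 2.31 ± 0.12 and 2.43 ± 0.41, differing by -1.04 in MI vs. Sham and -0.91 in DAPA vs. Sham (each exact permutation p = 0.1, adjusted 0.18) and by 0.12 in DAPA vs. MI (exact p = 0.8, adjusted 0.9). Red cell transcripts varied widely, the sum of 7 erythroid markers being 294 to 5850 FPKM in the Sham rats, 772 to 1311 in the MI rats and 14.1 to 496 in the DAPA group, and their part in the balance was not tested.

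The glutathione carriers Slc25a39 and Slc25a40 were at 45.6 to 78.3 and 1.26 to 6.74 FPKM, and neither was called. For Slc25a40 group Sham lay above group MI in every rat, with Sham 3 at 6.74 FPKM far above the rest (-0.72, SE 0.34, adjusted p = 0.133), and without Sham 3 the value was -0.34.

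Of 8 tested enzymes of one-carbon, glutathione and haem metabolism near these carriers, 2 were called higher in MI vs. Sham and none in DAPA vs. MI. Among all genes 12.1% were called higher in MI vs. Sham and 2.06% either way in DAPA vs. MI. Mthfd2 rose from 3.40 ± 1.52 to 15.6 ± 9.51 FPKM (1.82, adjusted p = 0.0131). Alas1, which starts haem synthesis, rose from 10.4 ± 2.33 to 23.4 ± 8.16 FPKM (1.06, adjusted p = 0.0247) and was named for its count, and Gclm, a subunit of glutathione synthesis, rose from 8.40 ± 0.805 to 14.1 ± 1.74 FPKM (0.68, adjusted p = 0.0137, under the fold threshold). Between the DAPA and MI rats Alas1 was at 0.53 (adjusted p = 0.559).

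In the uncoupling protein branch, Slc25a14 was at 4.14, 5.25 and 2.33 FPKM in the Sham rats, 2.64, 1.57 and 2.14 FPKM in the MI rats and 1.01, 1.66 and 1.38 FPKM in the DAPA group. The DAPA group lay below group Sham in every rat, by -1.02 (SE 0.28, adjusted p = 0.0306), while MI vs. Sham was -0.62 (adjusted p = 0.116) and DAPA vs. MI -0.40 (adjusted p = 0.559). Leaving out Sham 1, Sham 2 or DAPA 1 moved the fold to -0.97, -0.83 and -0.92, under the threshold, and the DAPA values rested on 30 to 48 reads.

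Slc25a30 went the other way after infarction. It rose from 2.59, 1.40 and 2.83 FPKM in the Sham rats to 5.04, 5.48 and 4.79 FPKM in the MI rats (0.93, SE 0.22, adjusted p = 0.0162), and by 1.01 without Sham 1 or 1.05 without Sham 3. The DAPA group lay between, at 4.23, 3.34 and 4.34 FPKM, without overlap with either, and differed from group MI by -0.30 (SE 0.15, adjusted p = 0.558). Slc25a27 was between 0.341 and 1.49 FPKM and had no call.

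Of 4 family members tested under other symbols, 2 were called higher in MI vs. Sham and 1 lower, against 12.1% and 10.3% of all genes. Ucp2, expressed widely and in immune cells, rose from 48.6 ± 15.2 to 145 ± 20.0 FPKM (1.59, adjusted p = 0.00332) and was at 114 ± 20.3 FPKM in the DAPA group (-0.35 in DAPA vs. MI, adjusted p = 0.574). Mtch1, an outer membrane member, rose from 70.9 ± 6.30 to 146 ± 11.9 FPKM (1.03, adjusted p = 0.00244), and Ucp3, the uncoupling protein of skeletal muscle and heart, fell from 2.07 ± 0.818 to 0.121 ± 0.0972 FPKM (-1.43, adjusted p = 0.00607). Ucp3 passed the filter of 1 FPKM only through the Sham rats, which limits what its call can mean. Mtch2 was at 32.2 ± 6.30 FPKM in the MI rats and 41.1 ± 9.43 FPKM with treatment, with a fold change of 0.33 (adjusted p = 0.618).

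Other inner membrane transporters outside the family had 13 tested genes in MI vs. Sham, 2 called higher and 1 lower, and none of 12 called in DAPA vs. MI. For all genes these shares were 12.1%, 10.3% and 2.06%. Sfxn1, the serine transporter, rose from 3.00 ± 1.16 to 10.9 ± 2.00 FPKM (1.59, adjusted p = 0.00360), and Sfxn4, another sideroflexin, fell from 15.4 ± 4.17 to 4.35 ± 0.786 FPKM (-1.60, adjusted p = 0.00270). Between the DAPA and MI rats Smdt1, a small uniporter subunit, was at 0.65 (adjusted p = 0.558) and Sfxn1 at -0.43 (adjusted p = 0.558).

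The members without a settled substrate were not called in any comparison. Slc25a34 spread from 3.36 to 16.4 FPKM, its highest value being DAPA 2. Slc25a45 was at 7.99 ± 2.38, 4.92 ± 1.07 and 4.14 ± 0.722 FPKM, with the DAPA group below group Sham in every rat (-0.78, SE 0.25, adjusted p = 0.0501). Slc25a46 lay above group Sham in every DAPA rat, by 0.29 (SE 0.16, adjusted p = 0.210), and Slc25a35 overlapped between all groups. Slc25a43 was tested in DAPA vs. MI only (-0.34, adjusted p = 0.692), and in the Sham rats it was at 0.156 to 0.581 FPKM, below every infarct rat. Slc25a47 and Slc25a48 were at 0 in at least 5 rats, and Slc25a48 was above 0 in 1 rat only.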

How the data were processed

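Left ventricular tissue in 9 samples, 3 per group, was sequenced after poly-T selection with a kit that does not mark strand, so a gene and an overlapping antisense gene cannot be told apart. The authors deposited FPKM per gene for 35843 genes, normalized by gene length and by a factor for each library that did not follow its total reads. On that scale the libraries were already close to a median-ratio scaling, with factors of 1.0003 to 1.0134. The submitters' processing notes name HISAT2 2.0.5, StringTie 1.3.3b, featureCounts 1.5.0-p3 and DESeq2, and the genome build and the handling of reads shared by similar genes are not given in the sources used here. No read counts were used in a test. Whole reads were recovered from the FPKM steps for 18896 of 18896 genes read in at least 4 libraries (tolerance 0.005 reads), to give depth only.

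FPKM were tested as log2(FPKM + 1) with limma 3.58.1 in R 4.3.3 (moderated variance with an abundance trend, the 2 groups of a comparison alone, genes of at least 1 FPKM in at least 3 of their rats) and adjusted by the Benjamini-Hochberg method over all genes tested. Fold changes on this scale understate the change of low genes. The p-values measure the spread between these samples, 3 per group, which bounds their precision. Balances within 5 pairs of carriers of 1 role, and of Slc25a3 against Slc25a4, were compared with two-sided exact permutation tests in scipy 1.17.1. Intervals and floors cover counting error only.

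Every Slc25a gene was accounted for. The carriers of adenine nucleotides, phosphate, carnitine and aspartate-glutamate, the pairs and each called carrier are given in every rat, and of partner lists at most the 2 genes with the smallest p in MI vs. Sham and in DAPA vs. MI, besides genes named because their count was 5 or fewer. Slc25a6 was placed with the ADP/ATP carriers, and genes of small counts were named, after the values were seen. Members and lists were chosen with earlier results of these data known. Alternatives were another pseudocount, filter, prior variance and set of samples in the fit, 3 scalings, other thresholds, a replicate block and leaving out each rat. The fitting procedures were tested on simulated data. Promoters came from RefSeq, assembly GRCr8, matched by symbol. A few genes that the counts include are not reported here. The columns not used numbered 0.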

Additional observations from a re-analysis of the deposited data

How the results depend on the processing

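Single fold changes below are those of the 21 carriers that were called, passed the adjusted p or stand in a pair or role given in every rat. Scaling moved the carriers most, and over all genes it turned the direction of 20 of the 36 carriers tested in MI vs. Sham, 12 in DAPA vs. MI and 14 in DAPA vs. Sham. With FPKM rescaled over all genes, 24 carriers were called higher and 0 lower in MI vs. Sham, 0 higher in DAPA vs. MI, and 19 higher and 0 lower in DAPA vs. Sham, and among those 21 the direction turned in MI vs. Sham for Slc25a3 (1.55), Slc25a4 (0.60), Slc25a12 (1.25), Slc25a14 (0.52), Slc25a28 (0.57), Slc25a33 (0.38), Slc25a38 (0.78) and Slc25a42 (0.32), in DAPA vs. MI for Slc25a5 (-0.19), Slc25a13 (-0.28), Slc25a28 (-0.30), Slc25a33 (-0.21), Slc25a38 (-0.0062) and Slc25a42 (-0.14), and in DAPA vs. Sham for Slc25a28 (0.27), Slc25a33 (0.17), Slc25a38 (0.77) and Slc25a42 (0.18). This scaling counts the mitochondrial genome, whose share differed between groups. Rescaled outside that genome, the counts were 4 higher and 3 lower in MI vs. Sham and 1 higher and 3 lower in DAPA vs. Sham, with Slc25a13 at -0.016 in DAPA vs. MI and Slc25a37 at -0.052 in DAPA vs. Sham, and the median ratio put Slc25a3 at 0.0071 in MI vs. Sham. A pseudocount of 0.1 called 3 higher and 2 lower in MI vs. Sham and moved the balance of Slc25a22 over Slc25a18 to 0.25, -0.55 and -0.30 in MI vs. Sham, DAPA vs. MI and DAPA vs. Sham.

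Without the fold threshold the counts were 5 higher and 6 lower, 3 higher and 2 lower, and 7 higher and 4 lower in the same order of comparisons, and with adjusted p and no fold threshold 5 and 4, 0 and 0, and 3 and 3. With adjusted p and the fold threshold 0 carriers were lower in MI vs. Sham and 0 higher in DAPA vs. MI. Leaving out 1 rat gave 0 to 2 higher and 0 to 3 lower in MI vs. Sham, 0 to 1 higher in DAPA vs. MI, and 1 to 4 higher and 0 to 2 lower in DAPA vs. Sham. Across those fits the range crossed 0 for 7 of 36 carriers in MI vs. Sham, 12 in DAPA vs. MI and 8 in DAPA vs. Sham, among the 21 for Slc25a3 (-0.25 to 0.24) and Slc25a37 (-0.12 to 0.21) in MI vs. Sham, for Slc25a13 (-0.10 to 0.15), Slc25a23 (-0.26 to 0.16), Slc25a33 (-0.035 to 0.21), Slc25a37 (-0.20 to 0.015) and Slc25a42 (-0.12 to 0.38) in DAPA vs. MI, and for Slc25a37 (-0.18 to 0.15) in DAPA vs. Sham. Except for the calling rules and rescaling over all genes, which move them by construction, the cause was not tested. Of the fold changes of these 21 carriers under alternatives, 661 kept direction and side of the threshold, 41 gained a call, 19 lost one and 35 turned.

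Samples with the same replicate number did not deviate together (correlations from -0.321 to 0.202), so the numbers were not taken as pairs. With a replicate block, DAPA vs. MI had 0 carriers higher, and 217 of all genes were called against 273 without it. The other carrier counts were the same or within 1.5 times with the block. Depth limits the carriers of few reads, such as Slc25a13 in Sham 3 with 4 reads.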

Other observations

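Set against the summed FPKM of the 17 cardiomyocyte markers in the same rat, a ratio chosen after the values were seen, Slc25a4 came to 10.4%, 9.39% and 10.4% of that sum in the Sham rats, 8.82%, 11.2% and 6.01% in the MI rats and 7.57%, 8.71% and 7.69% in the DAPA rats. The MI rats lay on both sides of the other groups, with MI 2 the highest of all. Slc25a3 came to 3.51%, 3.85% and 3.41%, to 5.09%, 9.73% and 3.92%, and to 3.52%, 3.67% and 4.12% in the same order, and Slc25a5 to 0.871%, 0.641% and 0.546%, to 1.67%, 4.09% and 1.099%, and to 0.855%, 0.727% and 1.08%. For both, MI 2 was the highest rat. No test was made of these ratios, whose denominator also differs between groups.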
